A study of Mus musculus with 8 samples.

Results

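The genes described here are 10 genes of epithelial adhesion and intermediate filaments, *Cdh1*, *Cdh2*, *Epcam*, *Cldn4*, *Cldn6*, *Cldn7*, *Tjp1*, *Krt8*, *Krt18* and *Vim*. They were chosen by gene symbol, with 1 entry per symbol, and all 10 were found among the 50902 genes of the deposited table, of which 25439 were above 0 in at least 1 library. RNA was sequenced from mouse E14 ESCs, an embryonic stem cell line, in 4 libraries of ESC + F/H-BAZ2Ar WT and 4 of ESC + F/H-BAZ2Ar ΔTAM, named below the WT line and the ΔTAM line. Both lines carried a FLAG/HA-tagged *Baz2a* transgene that siRNA cannot target, inserted with the piggyBac transposase, and both received siRNA-*Baz2a* against the endogenous transcript and were collected 3 days later. BAZ2A is a chromatin protein, and ΔTAM lacks its TAM domain, which binds RNA. All cells were kept in the ground state with LIF and 2i, inhibitors of MEK and GSK3β. Cells without a transgene were not analysed here, so each value stands against the WT transgene. The lines were derived separately by isolation of single-cell clones, so the effect of ΔTAM and a difference between clones cannot be told apart. Nothing states that the 4 libraries of a line came from separate cultures, so the p-values measure the spread between these libraries only.

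ESCs grow as epithelial colonies. E-cadherin (*Cdh1*) joins their cells and is tied to actin by catenins, whereas N-cadherin (*Cdh2*) replaces it in mesenchymal and neural cells. Claudins form the strands of tight junctions, which ZO-1 (*Tjp1*) anchors on the inner side of the membrane, and EPCAM, a membrane glycoprotein of simple epithelia, binds claudin-7. Keratins 8 and 18 assemble as obligate partners into the first keratin filaments of the embryo, and vimentin (*Vim*) is the intermediate filament protein of mesenchymal cells and of many cultured cells. A switch from the epithelial to the mesenchymal set is known as EMT (epithelial-mesenchymal transition).

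The authors deposited RPKM, which in these data are per kilobase of the whole genomic span of a gene, introns included, so that long introns lower the RPKM that a given number of reads yields. Reads per gene were recovered from the steps between RPKM values. They came to 7.26 M to 7.69 M reads on genes per library of the WT line and 6.56 M to 8.66 M per library of the ΔTAM line. Fold changes are log2 values of the ΔTAM line against the WT line, from limma on log2(RPKM + 0.1) for 9000 genes that averaged 0.1 RPKM or more, and from limma voom on recovered reads for 12657 genes that averaged 10 reads or more. The pseudocount of 0.1 RPKM makes the first smaller than the second for genes of low RPKM. A gene was called when its Benjamini-Hochberg adjusted p, over all genes tested, was under 0.05, and SE stands for standard error. *Baz2a* had 9.95, 10.3, 10.5 and 11.2 RPKM in the WT line and 17.0, 18.6, 18.5 and 18.9 RPKM in the ΔTAM line, every ΔTAM library above every WT library. Transgene and endogenous reads are not separated in the table, and whether this difference in *Baz2a* level has a part in the results was not tested. The pluripotency genes *Pou5f1* (3580 to 5000 reads per library) and *Nanog* (6034 to 8122 reads) were well covered in all 8 libraries and were not called. Of the other 6 pluripotency markers followed, *Sox2* (-0.42), *Tbx3* (-0.42), *Klf4* (-0.39) and *Esrrb* (-0.23) were called as lower by limma voom, each with at least 1254 reads in every library.

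The called differences were mainly losses in the ΔTAM line, in *Cldn4*, *Cldn7*, *Krt8* and *Krt18*, whose mean RPKM stood at 54.7%, 55.7%, 55.3% and 62.0% of the WT line. *Cdh1* was higher by a small amount, at 112% of the WT line. *Epcam*, *Vim*, *Tjp1* and *Cldn6* stood at 92.7% to 110.2% of the WT line and were not called, nor was the almost silent *Cdh2*. Of the 10 genes, 5 were called on recovered reads, 1 higher and 4 lower, where 43.9% of all genes tested were called in either direction and 21.9% as lower. The 4 losses were each of at least 0.58 on the log2 scale, and 6.25% of all genes tested were called as lower by that much. The share called in either direction was thus near that of all genes. On RPKM, 8 of the 10 passed the filter and 4 were called, 1 higher and 3 lower, against 35.8% of all genes in either direction and 15.9% as lower. In 4 genes (*Cdh1*, *Cldn4*, *Cldn7* and *Krt8*) the lines did not overlap, as in 37.8% of all genes tested on reads. The median log2 fold change of all genes was 0.011 on RPKM and -0.0026 on reads.

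**Figure D1:**
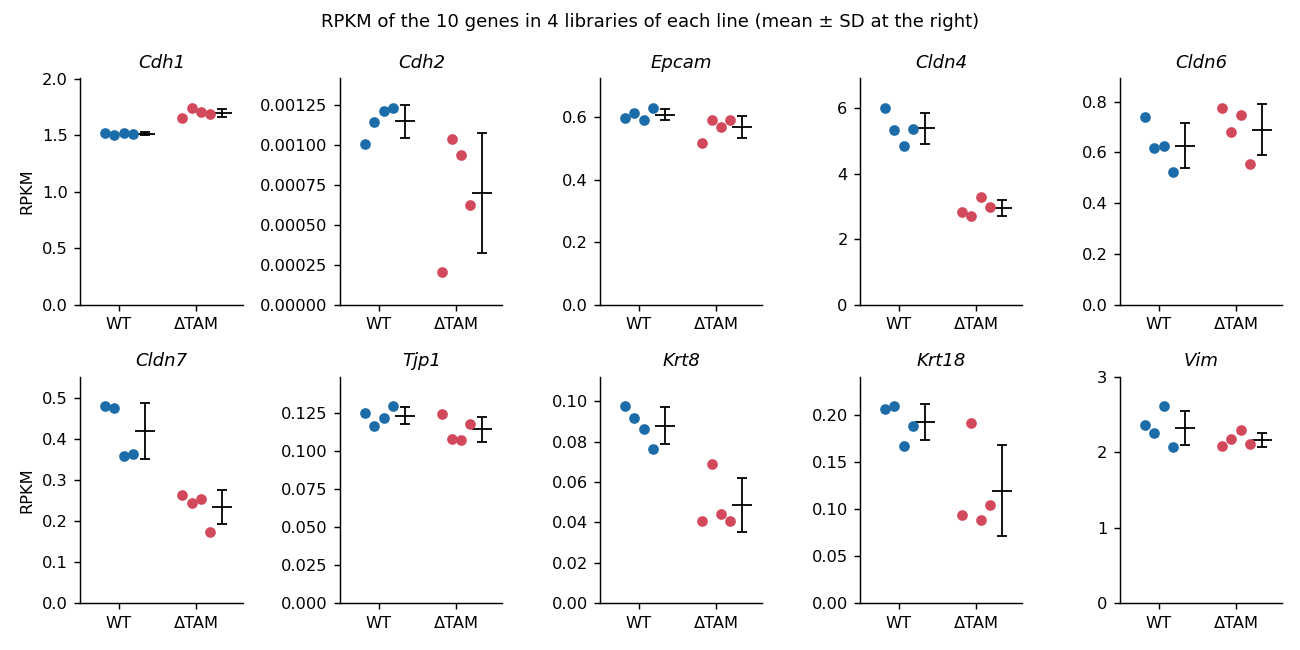
RPKM of each of the 10 genes on its own linear axis from 0, with 1 point per library (blue, WT line; red, ΔTAM line, in the order of replicates 1 to 4) and the mean ± SD of 4 libraries as a bar at the right. *Cldn4* and *Cldn7* are lower in every ΔTAM library, while in *Krt8* and *Krt18* ΔTAM replicate 2 stands above the other 3 ΔTAM libraries.

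Among the cadherins, *Cdh1* lies on chromosome 8 of mm10 from 106603351 to 106670246, on the plus strand. Its level was 1.53, 1.50, 1.53 and 1.51 RPKM in replicates 1 to 4 of the WT line and 1.65, 1.74, 1.70 and 1.69 RPKM in those of the ΔTAM line. Every ΔTAM library was above every WT library, and the libraries of a line lay close together, with averages of 1.52 ± 0.0126 and 1.70 ± 0.0381 RPKM (SD, n = 4 each). On the log2 scale it was higher by 0.15 on RPKM (SE 0.023, limma adjusted p = 0.00192) and by 0.16 on 4973 to 6574 reads per library (SE 0.028, voom adjusted p = 4.9e-05), a 1.12-fold increase on reads.

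*Cdh2* lies on chromosome 18 from 16588877 to 16809246, on the minus strand, and was almost silent. Its reads numbered 11, 13, 13 and 14 in the WT line and 2, 10, 11 and 8 in the ΔTAM line. The lines overlapped at 11 reads, and ΔTAM replicate 1 with 2 reads lay far below the rest. The gene was under the RPKM filter, and on reads its log2 fold change was -0.86 with an interval from -1.6 to -0.11 (95% confidence) and an adjusted p of 0.0578 from limma voom. Without ΔTAM replicate 1 the value was -0.44 (adjusted p = 0.265), without ΔTAM replicate 2 or 3 it was -1.07 in both fits (adjusted p = 0.0316 and 0.0391, all from limma voom), and without WT replicate 2, 3 or 4 its mean fell under 10 reads. By replicate number, the ΔTAM library was below its WT partner in every pair, and the paired fit on reads gave -0.75 (limma voom adjusted p = 0.0676). A difference of *Cdh2* was therefore not established at this depth. For each read on *Cdh2* there were 373 to 461 reads on *Cdh1* in the WT line and 511 to 2498 in the ΔTAM line, the highest in ΔTAM replicate 1 with its 2 reads. The cells of both lines thus had E-cadherin and next to no N-cadherin transcripts.

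Of the 3 claudins, *Cldn4* and *Cldn7* fell and *Cldn6* did not pass the test. *Cldn4* lies on chromosome 5 from 134945119 to 134946934, on the minus strand, in a single exon. It had 6.01, 5.34, 4.84 and 5.37 RPKM in the WT line and 2.84, 2.69, 3.29 and 2.98 RPKM in the ΔTAM line. The lowest WT library was well above the highest ΔTAM library, with averages of 5.39 ± 0.478 against 2.95 ± 0.254 RPKM (SD over 4 libraries). Its log2 fold change on RPKM was -0.85 (SE 0.078, limma adjusted p = 2.0e-04) and on 214 to 542 reads per library it was -0.86 (SE 0.073, voom adjusted p = 3.6e-09), a 1.81-fold decrease on reads. In a bulk sample, fewer cells that express a gene and less RNA per cell cannot be told apart, which holds for each gene here.

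*Cldn7*, whose protein binds EPCAM, lies on chromosome 11 from 69964779 to 69967885, on the plus strand. Its values were 0.479, 0.475, 0.357 and 0.362 RPKM in the WT line and 0.264, 0.243, 0.254 and 0.172 RPKM in the ΔTAM line. The WT libraries formed a higher and a lower pair, and the lower pair was still above all ΔTAM libraries. Its log2 fold change on RPKM was -0.64 (SE 0.12, limma adjusted p = 0.0053) and on 31 to 76 reads per library it was -0.86 (SE 0.17, voom adjusted p = 3.4e-04).

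*Cldn6*, a claudin of the early embryo, lies on chromosome 17 from 23679365 to 23682446, on the plus strand. It had 0.738, 0.618, 0.626 and 0.522 RPKM in the WT line and 0.775, 0.682, 0.749 and 0.553 RPKM in the ΔTAM line. The lines overlapped over most of their range, and on 83 to 123 reads per library the log2 fold change was 0.13, with an interval from -0.13 to 0.39 (95% confidence, voom adjusted p = 0.432). Single libraries moved this value, to 0.046, 0.071 and 0.079 without WT replicate 4, ΔTAM replicate 1 and ΔTAM replicate 3, and to 0.21 and 0.25 without WT replicate 1 and ΔTAM replicate 4, and it was called in no fit on reads. By replicate number, the ΔTAM library was above its WT partner in 4 of 4 pairs, and the paired fit on RPKM gave 0.12 (limma adjusted p = 0.072). The interval of *Cldn6* does not reach the decrease measured in *Cldn4* or *Cldn7*, but the difference between claudins was not tested.

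*Tjp1*, on chromosome 7 from 65296165 to 65527781 on the minus strand, encodes the scaffold beneath the claudin strands. Its level ran from 0.116 to 0.129 RPKM in the WT line and from 0.107 to 0.124 RPKM in the ΔTAM line, on 1091 to 1584 reads per library. Its log2 fold change was -0.060 on RPKM (SE 0.043, limma adjusted p = 0.321) and -0.11 on reads (SE 0.048, voom adjusted p = 0.0684). With the replicate number as a block, the paired fit on reads gave -0.11 with an adjusted p of 0.0208 from limma voom, so the call of *Tjp1* rests on the choice of fit. It also passed without WT replicate 2 (-0.14, adjusted p = 0.034) or ΔTAM replicate 1 (-0.15, adjusted p = 0.0127, both from limma voom). A loss of *Tjp1* as large as that of *Cldn4* lay outside its interval, which ran from -0.21 to -0.010 (95% confidence).

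*Epcam*, on chromosome 17 from 87635979 to 87651106 on the plus strand, had 0.589 to 0.629 RPKM in the WT line and 0.516 to 0.592 RPKM in the ΔTAM line. The ranges overlapped slightly, and on 353 to 520 reads per library the log2 fold change was -0.095 with an interval from -0.21 to 0.024 (95% confidence, voom adjusted p = 0.192). Without ΔTAM replicate 1 it was -0.054 (voom adjusted p = 0.47). By replicate number, the ΔTAM library was below its WT partner in 4 of 4 pairs (paired fit on RPKM, limma adjusted p = 0.128). The transcript of the claudin-7 partner was thus not called, while *Cldn7* itself was.

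Both keratins fell in the ΔTAM line. *Krt8* and *Krt18* are neighbours on chromosome 15, from 101996711 to 102004342 on the minus strand and from 102028216 to 102032026 on the plus strand, with 23.9 kb between them. *Krt8* had 37, 36, 32 and 30 reads in the WT line and 14, 23, 18 and 18 reads in the ΔTAM line, or 0.0975, 0.0916, 0.0861 and 0.0762 against 0.0406, 0.0688, 0.0443 and 0.0406 RPKM. All ΔTAM libraries were below all WT libraries, and ΔTAM replicate 2 came closest. The mean RPKM was under the filter, and on reads the log2 fold change was -0.88 (SE 0.22, voom adjusted p = 0.00204), a 1.84-fold decrease.

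*Krt18* had 39, 41, 31 and 37 reads in the WT line and 16, 32, 18 and 23 reads in the ΔTAM line, or 0.206, 0.209, 0.167 and 0.188 against 0.0929, 0.192, 0.0886 and 0.104 RPKM. ΔTAM replicate 2 lay within the WT range and the other 3 ΔTAM libraries below it. The log2 fold change was -0.77 on reads (SE 0.22, voom adjusted p = 0.00698) and -0.44 on RPKM (SE 0.14, limma adjusted p = 0.0433). On reads *Krt18* was called in each of the 8 fits without 1 library, with values from -0.99 (without ΔTAM replicate 2) to -0.65 (without ΔTAM replicate 3). On RPKM it was called only without ΔTAM replicate 2 (-0.58, adjusted p = 0.00124), and in the other 7 fits its value ran from -0.48 to -0.37 with an adjusted p from 0.0588 to 0.104 from limma.

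Within the lines, the 2 keratins had a Pearson r of 0.88 and a Spearman rho of 0.62 between their deviations from the means of the lines (8 libraries, exact permutation within the lines, p = 0.0816 and 0.104). Without the 2 libraries farthest from the median r was 0.40, so the relation rests on those libraries, and after adjustment over the 45 pairs of the 10 genes p was 0.844. Both keratins have few reads and copies elsewhere. A processed pseudogene, *Krt8-ps*, matches 941 bases of *Krt8* at 98.6% identity and had 0 reads in every library, and *Gm5200* matches 1267 bases of *Krt18* at 90.5% and was not analysed here. A non-coding gene on the opposite strand, *Gm36026*, shares 101 exon bases with *Krt8*. How the counting treated strand and reads with several matches is not stated.

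*Vim* lies on chromosome 2 from 13573927 to 13582826, on the plus strand. It had 2.37, 2.25, 2.61 and 2.07 RPKM in the WT line and 2.08, 2.18, 2.29 and 2.11 RPKM in the ΔTAM line. The ΔTAM libraries all fell inside the WT range. On 836 to 1132 reads per library the log2 fold change was -0.094 (SE 0.055, interval from -0.21 to 0.020 at 95% confidence, voom adjusted p = 0.173). It was called without WT replicate 4 (-0.15, adjusted p = 0.024) and was -0.038 without WT replicate 3 (adjusted p = 0.586, both from limma voom). Beside the fall of the keratins, the interval of *Vim* on reads thus reaches no increase above 0.020. On RPKM its log2 fold change was -0.094 with a wider interval, from -0.25 to 0.064 (95% confidence, limma adjusted p = 0.321).

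**Figure D2:**
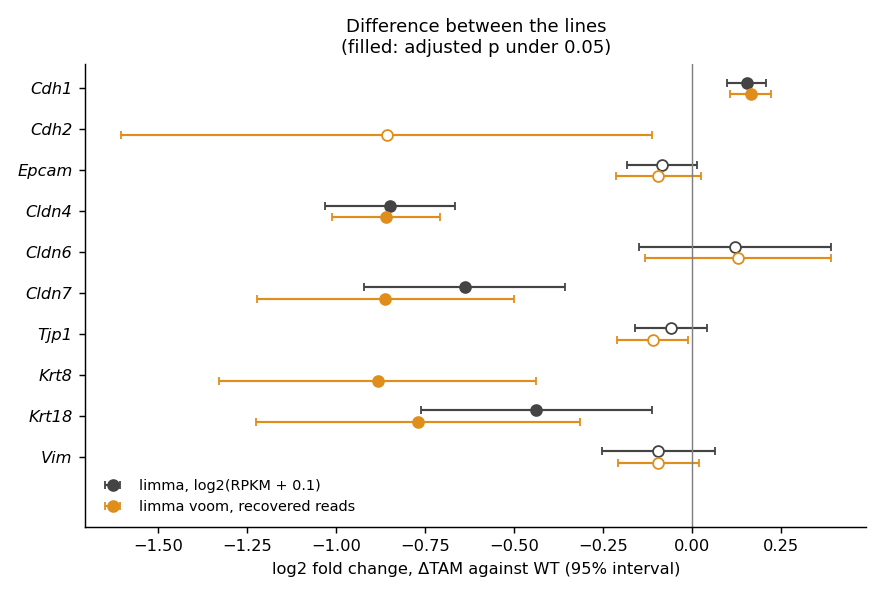
Log2 fold change of the 10 genes in the ΔTAM line against the WT line with its 95% interval, from limma on log2(RPKM + 0.1) (grey) and from limma voom on recovered reads (orange), filled where the adjusted p was under 0.05. *Cldn4*, *Cldn7*, *Krt8* and *Krt18* lie between -0.88 and -0.77 on reads and *Cdh1* at 0.16. *Krt8* and *Cdh2* have no value on RPKM because they were under its filter.

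Levels of different genes can be compared only per transcript length, for which the reads were divided by the kilobases of annotated exon and by the library's reads on genes in M. On this scale *Cdh1* was by far the highest of the 10, with 149 in the WT line and 166 in the ΔTAM line. Next in the WT line came *Cldn4* at 36.2, *Vim* at 29.3, *Epcam* at 28.1 and *Tjp1* at 24.5. The WT libraries of *Cldn4* and *Vim* overlapped, as did those of *Vim* and *Epcam*, so their order is not resolved. Lower down were *Cldn6* at 7.53, *Cldn7* at 4.48, *Krt18* at 3.43, *Krt8* at 2.30 and *Cdh2* at 0.211, none of which overlapped its neighbour. In the ΔTAM line *Cldn4* was at 19.8, rank 5 in place of rank 2, behind *Vim* at 27.2, *Epcam* at 26.2 and *Tjp1* at 22.7. *Cldn7* was at 2.49, *Krt18* at 2.12 and *Krt8* at 1.27 there. Neighbours in this order overlapped from *Vim* down to *Cldn4* and from *Cldn7* down to *Krt8*, so that their order is not resolved in the ΔTAM line. The transcripts that fell thus included *Cldn4*, at a level like that of *Vim* in the WT line, and 3 of the 4 least abundant of the 10.

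**Figure D3:**
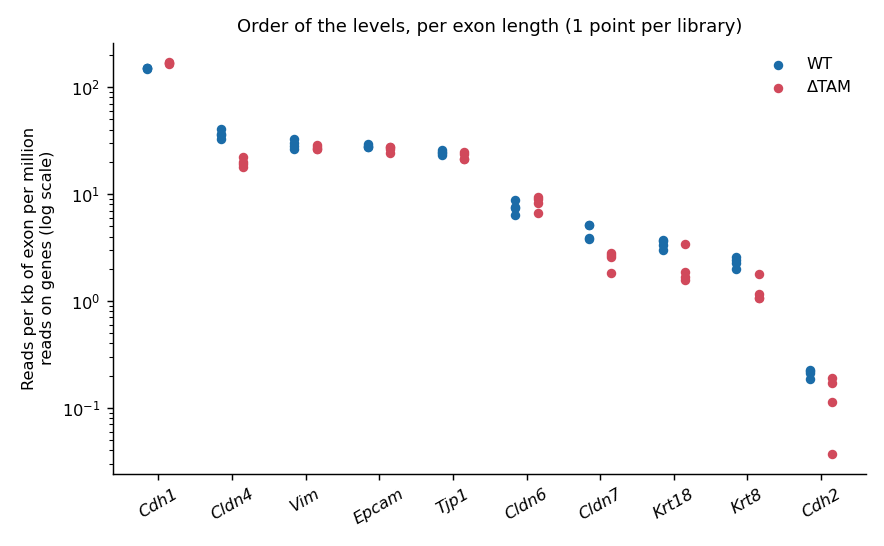
Reads per kilobase of annotated exon per M reads on genes for the 10 genes, on a log axis, with 1 point per library and the genes ordered by their mean in the WT line (blue, WT line; red, ΔTAM line). *Cdh1* is at 149 in the WT line and *Cdh2* at 0.211, and *Cldn4* drops from 36.2 to 19.8.

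The 4 genes that fell are shown with the 250 bases before their start site, to see which letters these windows share. They are grouped only by their lower level in the ΔTAM line. The sequences are from RefSeq on GRCm38.p6, 5′ to 3′ on the strand of the gene, and the last base lies just before the start. Capitals mark the letters CAGGTG (an E-box of the kind that SNAI and ZEB repressors bind), TGANTCA (AP-1) and GGGCGG (a GC box), each searched on both strands, and no 2 of these matches overlap. The windows are chr5:134946935-134947184 for *Cldn4*, chr11:69964529-69964778 for *Cldn7*, chr15:102004343-102004592 for *Krt8* and chr15:102027966-102028215 for *Krt18*. Of the 2 RefSeq starts of *Cldn7*, the window is that of the start that the deposited table also uses.
Cldn4: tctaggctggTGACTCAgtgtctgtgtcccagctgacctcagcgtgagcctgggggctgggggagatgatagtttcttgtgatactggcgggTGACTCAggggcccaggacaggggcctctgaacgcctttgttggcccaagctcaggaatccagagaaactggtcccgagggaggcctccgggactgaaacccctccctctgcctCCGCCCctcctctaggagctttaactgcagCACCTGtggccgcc
Cldn7: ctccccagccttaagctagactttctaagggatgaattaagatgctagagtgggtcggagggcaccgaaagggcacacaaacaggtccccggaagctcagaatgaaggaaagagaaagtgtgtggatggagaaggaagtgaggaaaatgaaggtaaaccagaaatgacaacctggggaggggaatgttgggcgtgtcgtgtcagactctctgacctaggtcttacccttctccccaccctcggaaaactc
Krt8: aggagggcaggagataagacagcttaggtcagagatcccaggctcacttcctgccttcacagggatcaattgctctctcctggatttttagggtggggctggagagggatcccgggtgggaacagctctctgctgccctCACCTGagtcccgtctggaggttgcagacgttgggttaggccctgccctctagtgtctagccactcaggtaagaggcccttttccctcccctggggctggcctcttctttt
Krt18: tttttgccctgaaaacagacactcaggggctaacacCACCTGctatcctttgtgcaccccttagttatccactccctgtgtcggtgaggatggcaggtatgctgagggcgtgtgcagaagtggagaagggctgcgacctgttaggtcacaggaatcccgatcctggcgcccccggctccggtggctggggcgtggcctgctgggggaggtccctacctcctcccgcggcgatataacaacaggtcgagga

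The E-box letters begin at -14 in *Cldn4*, -111 in *Krt8* and -214 in *Krt18*, counted from the start site, and are not in the window of *Cldn7*. They are also in the windows of *Epcam* (at -187 and -19) and *Cldn6* (at -93), which were not called, and not in those of *Vim* or *Tjp1*, whose RefSeq starts lie inside the spans given above, so that their windows are not those before the outermost start of the gene. Of all 32851 RefSeq promoter windows of this length, 17.2% hold them. AP-1 letters begin at -240 and -158 in *Cldn4* and are in no other of the 8 windows, against 6.75% of all windows. GC box letters are in the windows of *Cldn4*, *Epcam*, *Cldn6* and *Tjp1*, against 32.7% of all windows, and the Grainyhead-like letters AACNNGTT are in none of the 8, against 3.64%. The 4 genes that fell thus share none of these 4 motifs in this window. A match is a description of letters and no evidence of binding.

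Around the 10 genes, 7 lists of junction, filament and regulator genes held 118 genes of the table. On reads 85 were tested, 23 were higher and 23 lower in the ΔTAM line, with a median log2 fold change of 0.023, beside 43.9% of all genes called in either direction and 21.9% as lower. On RPKM 52 were tested, 16 were higher and 12 lower, with a median of 0.041, beside 35.8% and 15.9% of all genes. The counts of each list below are to be read against these shares, and whether a list differs from the rest of the genes was not tested.

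Of the cadherin-catenin and nectin genes, 17 were tested on reads, 6 were higher and 5 lower, with a median of 0.0038. *Ctnnb1*, which encodes β-catenin, the partner of E-cadherin that also carries the Wnt signal, had 4249 to 4481 reads in the WT line and 4496 to 5680 in the ΔTAM line (log2 fold change 0.22, adjusted p = 7.5e-06). Plakoglobin, *Jup*, which links cadherins of both junction types, fell from 1366 to 1452 reads to 868 to 1134 (-0.53, adjusted p = 4.4e-10). Among genes averaging 100 reads or more, the largest changes were in *Nectin1*, an adhesion receptor (-0.68, SE 0.072), and *Ajuba*, a LIM protein of adherens junctions (0.64, SE 0.052), with adjusted p-values of 1.1e-07 and 1.4e-09 from limma voom. *Ctnnb1* and *Jup*, unlike the last 2, were picked after their values were seen.

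Of the tight junction genes other than those above, 24 were tested on reads, 5 were higher and 3 lower, with a median of -0.028. *Tjp3* (ZO-3) fell by 0.53 on the log2 scale (145 to 201 reads in the WT line, 102 to 144 in the ΔTAM line, adjusted p = 5.7e-04), and *Cgn* (cingulin) rose by 0.56 (128 to 156 reads against 158 to 253, adjusted p = 4.4e-05, both from limma voom). Of the other claudins in this list, *Cldn3*, *Cldn5* and *Cldn12* were tested and not called, and the rest had at most 6 reads in any library.

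Of the desmosome and plakin genes, 11 were tested on reads, 3 were higher and 4 lower, with a median of 0.099. *Dsp*, desmoplakin, which ties keratin filaments to desmosomes, rose by 0.46 (299 to 386 reads against 375 to 574, voom adjusted p = 1.7e-05), and the desmosomal cadherin *Dsg2* rose by 0.40 (851 to 985 reads against 1026 to 1340, voom adjusted p = 1.4e-07). Picked after their values were seen, the plakin *Ppl* (39 to 58 reads against 19 to 34, -0.85) and the plakophilin *Pkp3* (76 to 96 reads against 43 to 63, -0.68) were lower, with adjusted p-values of 0.00143 and 2.1e-04 from limma voom. The called genes of this list thus moved in both directions.

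Of the other intermediate filament genes, 14 were tested on reads, 5 were higher and 4 lower, with a median of 0.11. *Nes*, the filament gene of neural progenitors, fell by 0.97 (196 to 238 reads against 90 to 133, adjusted p = 9.5e-08), and *Lmna*, which encodes the A-type lamins, rose by 0.48 (166 to 202 reads against 219 to 307, adjusted p = 1.3e-04, both from limma voom). Below 100 reads, and picked after their values were seen, *Krt17* fell (22 to 31 reads against 8 to 16, -1.12, adjusted p = 6.6e-04) and the neuronal filament gene *Ina* rose (22 to 27 reads against 62 to 82, 1.55, adjusted p = 1.3e-07, both from limma voom). *Krt7* and *Krt19*, other keratins of simple epithelia and likewise picked later, had at most 19 and 17 reads and were not called.

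Of the EPCAM partners and serine proteases, 7 were tested on reads, 1 was higher and 4 lower, with a median of -0.20, where 21.9% of all genes were lower. The matriptase gene *St14* fell by 0.31 (966 to 1177 reads against 776 to 947, adjusted p = 1.7e-05) and *Spint2*, an inhibitor of such proteases, by 0.28 (732 to 787 reads against 540 to 728, adjusted p = 1.3e-04, both from limma voom). Matriptase is known to cleave EPCAM.

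Of the epithelial transcription and splicing regulators, 9 were tested on reads, 3 were higher and 3 lower, with a median of 0.11. *Elf3*, an ETS factor of epithelia, rose by 0.82 (1006 to 1088 reads against 1632 to 2126, voom adjusted p = 1.5e-13). *Grhl3*, a Grainyhead-like factor of epidermis, fell by 0.63 (359 to 400 reads against 219 to 269, voom adjusted p = 1.4e-07). Picked after their values were seen, *Grhl2* (61 to 77 reads against 31 to 56, -0.61) and the splicing regulator *Esrp1* (32 to 44 reads against 16 to 32, -0.70) were lower, with adjusted p-values of 0.00186 and 0.0124 from limma voom. The paralog *Esrp2*, picked in the same way, went the other way (50 to 63 reads against 62 to 95, 0.46, voom adjusted p = 0.00926), and the AP-2 factor *Tfap2c*, likewise picked later, was higher as well (0.21, voom adjusted p = 0.00549).

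The transcription factors of EMT, several of which are known to repress *Cdh1*, had few reads or did not pass the test. *Zeb1* had 94 to 122 reads in the WT line and 86 to 124 in the ΔTAM line (log2 fold change 0.023, adjusted p = 0.885). *Snai1* had 9 to 15 against 14 to 20 reads (0.45, adjusted p = 0.21) and *Twist1* 12 to 16 against 9 to 17 reads (-0.19, adjusted p = 0.589, all from limma voom). The highest library of *Snai2* had 6 reads, that of *Snai3* 12 and that of *Zeb2* 11, whereas *Twist2* and *Prrx1* had 0 reads in all 8. Of the 3 tested by limma voom and the 1 tested on RPKM by limma, 0 were called and 0 had an unadjusted p under 0.05.

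**Figure D4:**
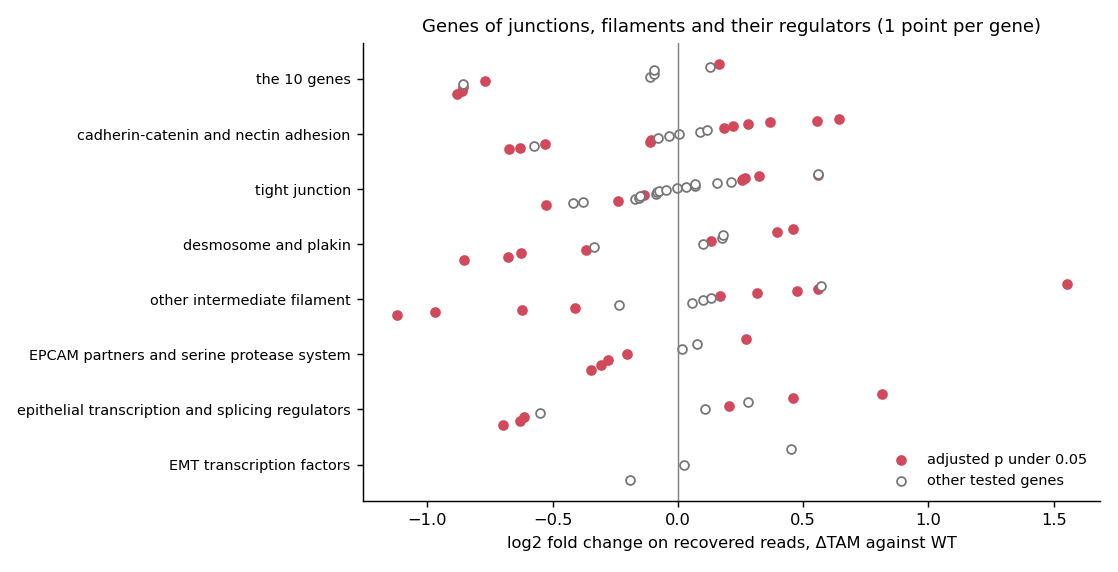
Log2 fold change on recovered reads (ΔTAM line against WT line) of the tested genes among the 10 and in each of the 7 lists, with 1 point per gene, red where the adjusted p was under 0.05 and open otherwise. Each list but that of the EMT factors has called genes on both sides of 0, and 23 genes of the 7 lists are higher and 23 lower.

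Some genes that mark other cell types were also called, in a table where 43.9% of all genes were called on reads and 21.9% as lower, and their part in these results was not tested. Of 15 mesenchymal and fibroblast markers, 5 were tested on reads, 1 was higher and 4 lower, *Fn1* (fibronectin, 23200 to 25993 reads against 16838 to 21514) taking most of the reads. The sum of the list was 3521 to 3707 reads per M reads on genes in the WT line and 2808 to 3132 in the ΔTAM line, and *Col3a1*, *Dcn*, *Lum* and *S100a4* had 0 reads throughout. Keratins 8 and 18 and claudin-4 are also made by extraembryonic cells. Of 11 markers of primitive endoderm, 3 were tested and 2 were lower, with sums of 332 to 351 against 168 to 190 per M. That sum came mainly from the laminin gene *Lama1* (2256 to 2535 reads against 993 to 1298, -1.05, voom adjusted p = 4.6e-15), while the factors *Gata6*, *Sox17* and *Foxa2* reached no more than 10, 10 and 1 reads. *Gata4* went against the sum, with 28 to 34 reads in the WT line and 39 to 43 in the ΔTAM line (0.39, voom adjusted p = 0.072), and so did *Dab2*, with 0 to 3 against 4 to 10 reads, too few to be tested. Of 7 trophectoderm markers, 4 were tested, 1 was higher and 2 lower, with sums of 81.3 to 86.1 against 72.9 to 81.5 per M. *Tead4* took most of these reads (436 to 500 against 360 to 454, -0.20, voom adjusted p = 0.00542), *Elf5* and *Hand1* had at most 1 read, and *Cdx2* was higher, against the sum (76 to 92 reads against 68 to 140, 0.39, voom adjusted p = 0.0321). Of 7 neural and mesoderm markers, 2 were tested and 1 was lower, with sums of 41.3 to 43.7 against 30.6 to 41.2 per M. Of 8 pluripotency markers, all tested, 4 were lower, with sums of 5449.9 to 5503 against 4899.6 to 5111 per M.

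Across the 8 libraries and 2145 genes that averaged 1 RPKM or more, the genes whose log2(RPKM + 0.1) followed *Cdh1* most closely were *Birc5*, *Hmgb2* and *Hdac1* (Pearson r of 0.994, 0.994 and 0.993). Since *Cdh1* differed between the lines and varied little within them, genes chosen in this way must differ between the lines in the same direction, and all 3 did. For *Vim* the closest were *Xab2*, *Ubqln4* and *Tfam* (0.948, 0.933 and 0.928), none of which was called.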

How the data were processed

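Total RNA of 4 libraries per line was polyA-selected and sequenced with a stranded kit. The authors removed ribosomal reads (SortMeRNA), trimmed (Trimmomatic, 0.36 in the submitters' processing notes), mapped to mm10 with STAR and derived gene-wise exon coverage by a pipeline of their own. They deposited it as RPKM, unpooled. The annotation release, use of strand and treatment of multi-mapping reads are not given in the sources used here. Labels and methods differ on the sequencer.

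The table held 51288 entries, of which 386 repeated ones were set aside. Multiplied by the genomic span, 99.5% to 99.6% of the RPKM values of a library were whole reads within 0.05 read. Library totals, inferred from the RPKM value of 1 read, were 48.7 M to 51.6 M (WT line) and 43.8 M to 58.1 M (ΔTAM line), of which 14.8% to 15.0% lay on genes. These reads carry no molecular identifiers, so their number gives counting error only. Limma 3.58.1 (R 4.3.3) was fitted without covariates, with eBayes moderation and trend, on log2(RPKM + 0.1), and voom on recovered reads scaled by the median ratio, which called 5551 genes. Both were tested only on simulated reads with the same spread beyond counting error in all genes and no replicate effect, a simpler case than these libraries. Exon lengths, overlaps and near copies (BLAST+ 2.17.0, at least 90% identity over 150 bases) came from GENCODE vM21, and Python 3.11.15 was used for summaries.

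The members and lists were chosen with earlier results of these data known. Besides the 10 members, the genes named are the 2 with the largest change per list among called genes averaging 100 reads or more, every EMT factor, and the 3 most like *Cdh1* and *Vim*. Other genes of the lists, said to be picked after their values were seen, and markers of other cell types are named outside this rule. Libraries with the same replicate number deviated together (r of 0.33, 0.14, 0.20 and 0.24 over 2148 genes), so the replicate block was treated as a pairing that comes from the numbers in the labels and this check. Pseudocount, filter, scaling, eBayes trend, block, repeated entries and each library in turn were varied.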

Additional observations from a re-analysis of the deposited data

Results flagged for a closer look

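In a test for 1 library far from the other 3 of its line (Dixon's ratio of gap to range), 2 of 44 groups over the 10 genes and the 12 genes that the rule of size names from the lists were marked, where chance marks about 1 in 20. Both are in the same library. The highest *Krt8* value of the ΔTAM line was in replicate 2, at 0.0688 RPKM, and the highest *Krt18* value was in replicate 2 as well, at 0.192 RPKM. Without that library the log2 fold changes on reads were -1.04 for *Krt8* (adjusted p = 9.9e-04) and -0.99 for *Krt18* (adjusted p = 0.00105, both from limma voom), against -0.88 and -0.77 with it. These marks rest on 23 and 32 reads.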

How the results depend on the processing

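Of the 10 genes, none changed direction in any fit. Among the 10, 1 was higher under each of the settings tried. With a filter at a mean of 1 RPKM, 1 was lower in place of 3, the 7 lists had 4 higher and 0 lower genes (7 tested, 1 lower with an unadjusted p under 0.05, by limma) in place of 16 and 12, and all genes had 590 higher and 399 lower in place of 1790 and 1435, because fewer genes were tested. On recovered reads the 7 lists had 23 lower genes, and all genes 2773 higher and 2778 lower. That fit differs in its scale and model as well as in the genes tested, and the cause was not tested. With a filter at a mean of 50 reads, 2 of the 10 were lower in place of 4, since the keratins were left out. With no filter *Krt18* was not called on RPKM (adjusted p = 0.0964 from limma). The pseudocount set the size of the fold of genes with low RPKM by its construction, from -0.82 (0.01 RPKM) to -0.20 (1 RPKM) for *Cldn7* and from -0.71 to -0.092 for *Krt18*, and both remained called. With the replicate block, the paired fit gave 15 higher and 11 lower genes in the 7 lists and 1557 and 1239 of all genes on RPKM, and beyond *Tjp1* on reads, which brought the genes lower on reads from 4 to 5, it changed no other call of the 10. With each library left out in turn, *Cldn4* ran from -0.90 to -0.80, *Cldn7* from -0.70 to -0.54 and *Cdh1* from 0.14 to 0.17 on RPKM, and *Krt8* from -1.04 to -0.80 on reads, all called. Depth limits *Cdh2* and most EMT factors, which had at most 20 reads per library, *Zeb1* excepted.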
